A study of Rattus norvegicus with 12 samples.

Results

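The ephrin, Slit and netrin guidance systems are ligand and receptor families that steer growing axons. They are described here in rat hippocampal slice cultures treated with antibodies against Nogo-A. Members were the probe sets annotated to exactly 1 gene symbol among 39 listed guidance genes. Of these 39 genes, 30 had such a probe set, with 49 probe sets among the 31042 tested and among the 14217 genes named by a single symbol. They comprised 7 EphA receptors with 13 probe sets, 3 ephrin-A ligands with 5, 4 EphB receptors with 4, 2 ephrin-B ligands with 3, 3 Slit ligands with 5 and 3 Robo receptors with 5. The netrin family ligands Ntn1 and Ntng1 had 4, the receptor Dcc had 1, 3 UNC5 receptors had 5, Rgma had 1 and its receptor Neo1 had 3. Epha1, Efna2, Efna3, Ephb2, Efnb2, Robo4, Ntn3, Ntn4 and Unc5d had no probe set of their own in the table used here.

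Ephrins are membrane-bound ligands of the Eph receptor tyrosine kinases, and both partners can signal into their own cell. Ephrin-A ligands are held in the membrane by a lipid anchor and ephrin-B ligands span it. In the hippocampus Eph signalling is known for growth cone collapse, topographic mapping and the shaping of dendritic spines. Slit proteins are secreted repellents that bind Robo receptors, netrin-1 attracts axons through DCC and repels them through UNC5 receptors, and RGMa repels axons through neogenin. Nogo-A, found on oligodendrocytes and in some neurons, restricts the growth of neurites.

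The cultures came from the hippocampus of Wistar rats at postnatal day 7, cut at 350 µm and placed 4 to an insert at 33 °C, and all groups shared this strain, age and tissue. Each of the 4 groups had 3 arrays, each from 24 pooled cultures collected after 26 days in vitro. NT cultures received nothing. IgG cultures received a control monoclonal antibody against wheat auxin, and 11C7 and 7B12 cultures received mouse monoclonal antibodies against Nogo-A, raised to its residues 623 to 640 and 763 to 820. Antibody treatment began on day 21 and lasted 5 days at 3 µg/ml, and the medium was renewed every 2 days. NT cultures therefore lack any added antibody, and IgG cultures carry an antibody raised against a plant hormone. The study states that replicates were separate cultures from different animals. Titles number the arrays 1 to 3 in each group without saying what a number marks.

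The deposited values are ratios, scaled per array and per probe set, so a value never shows how abundant a transcript is. The series' design text names the controls' median as the reference for each gene, yet the median ratio of the 6 control arrays was about 1 for 4 member probe sets and for 11.2% of all, and that of all 12 arrays for 43 members and 76.4% of all. What the ratios are relative to is therefore not settled, though a difference between arrays of 1 probe set does not depend on it. For the same reason the presence of a cell type cannot be read from its markers' levels. Values below are log2 ratios less the array's median, on which a difference of 1 is a 2-fold difference. The 12-array median ratio was lower than 1 for 1 probe set each of Efna5, Epha8, Neo1, Ntn1, Robo3 and Slit2. Each test used limma over all 31042 probe sets, and a probe set is called where its Benjamini-Hochberg adjusted p is under 0.05. Precision is limited by having 3 arrays a group. Standard errors of group differences come from a fit without the replicate number unless stated, so they include the spread between numbers.

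**Figure D1:**
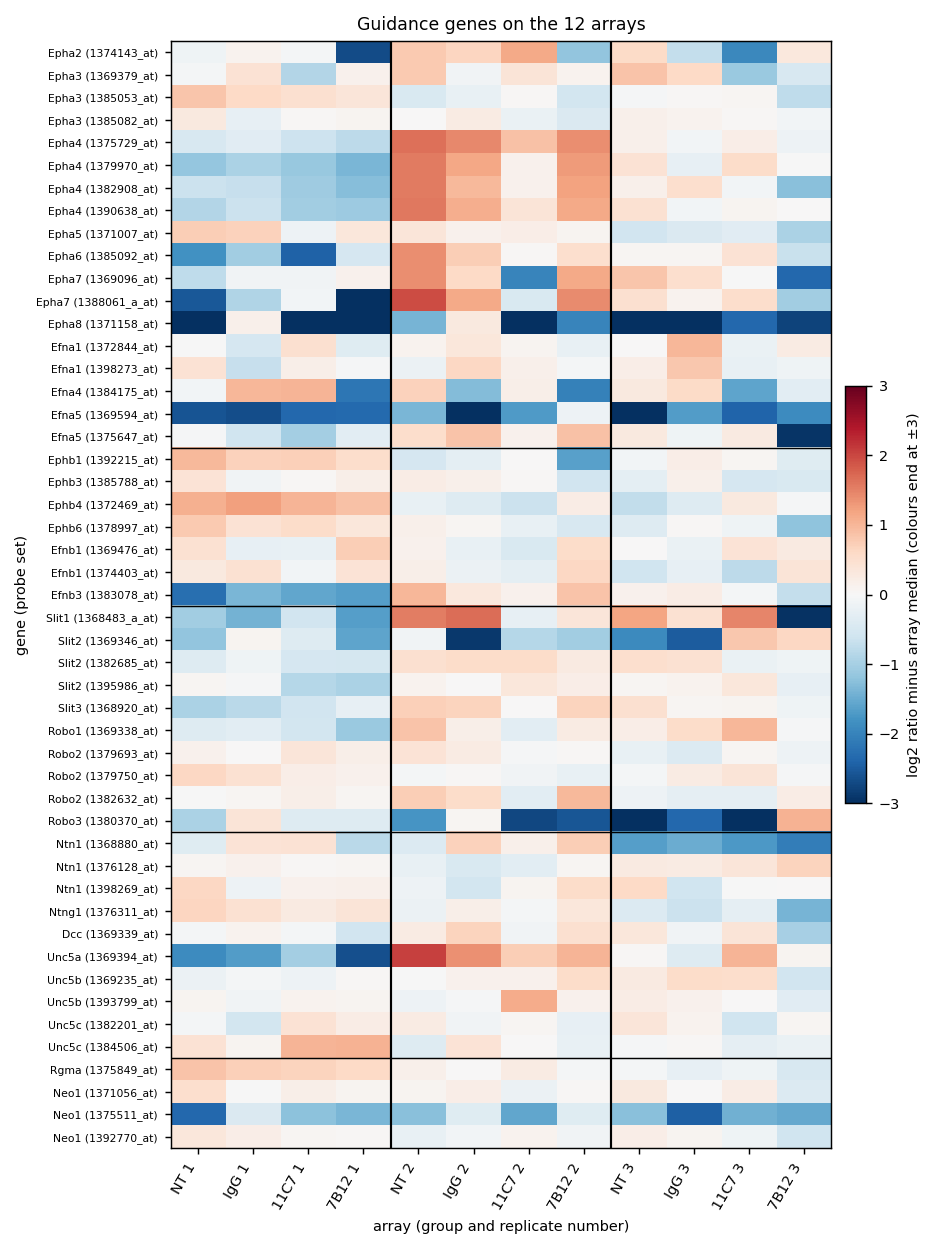
Each row is a member probe set, each column an array, ordered by replicate number with the 4 groups inside each number, and colour is the log2 ratio minus the array median (colours end at ±3). Vertical lines separate replicate numbers and horizontal lines separate the systems; the 4 Epha4 probe sets are blue in number 1 and red in number 2 in all 4 groups.

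The calls among members were between replicate numbers and not between treatments. In a fit of group and number, 18 of the 49 member probe sets, from 14 genes, differed among the 3 numbers, where 17.9% of all probe sets did. Of the 18, 10 were highest in number 2 (6.42% of all probe sets were called and highest there), 7 were highest in number 1 (7.7%) and 1 in number 3 (3.74%). The highest in number 2 were all 4 probe sets of Epha4, and Unc5a, Efnb3, Epha6, Slit3, 1382685_at of Slit2 and 1368880_at of Ntn1. The highest in number 1 were Rgma, Ephb1, Ephb4, Ephb6, Epha5, Ntng1 and 1385053_at of Epha3. None of the 5 ephrin-A, 5 Robo, 3 Neo1 or Dcc probe sets was called, the smallest adjusted p among all uncalled members being 0.0879 for Robo1. The count moved with single arrays: it was 6 without NT 1 (5.63% of all probe sets), 10 without NT 2 (9.13%), 11 without NT 3 (9.02%), 9 without IgG 1 (7.29%), 9 without IgG 2 (10.4%) and 10 without 7B12 1 (6.84%), and it was 0 in the 6 control arrays alone (0%). The share of all probe sets moved too. Among probe sets with a 12-array median of about 1, 17 of 43 members were called against 31.7% of 23723, and with array weights 20 of 49 against 25.4%.

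Epha4, a receptor that binds both ephrin classes and acts in spine remodelling, had 4 probe sets with the same order. Epha4 (1375729_at) stood at -0.47, 1.66 and 0.15 in NT arrays 1, 2 and 3, at -0.34, 1.45 and -0.08 in IgG, at -0.61, 0.87 and 0.20 in 11C7 and at -0.77, 1.39 and -0.15 in 7B12. All number 2 arrays lay above the other 8 and all number 1 arrays below them. Its mean was -0.55 ± 0.18 (SD, n = 4) in number 1, 1.34 ± 0.34 in number 2 and 0.03 ± 0.17 in number 3, and number 2 exceeded number 1 by 1.89 ± 0.17 (SE), with a limma adjusted p of 0.00380 over the 3 numbers. Epha4 (1390638_at) stood at -0.87, 1.59 and 0.46 in NT, -0.65, 1.08 and -0.08 in IgG, -1.05, 0.39 and 0.07 in 11C7 and -1.09, 1.14 and 0.02 in 7B12. Here too number 1 lay below the other 8 arrays, but 11C7 2 lay below NT 3. Its difference of number 2 from number 1 was 1.97 ± 0.20 (SE; limma adjusted p = 0.00465).

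Unc5a, a netrin receptor for repulsion, had the widest difference among the called members. Unc5a (1369394_at) stood at -1.89, 2.05 and 0.03 in NT arrays 1, 2 and 3, at -1.67, 1.38 and -0.40 in IgG, at -1.03, 0.73 and 1.03 in 11C7 and at -2.63, 1.01 and 0.09 in 7B12. All 4 number 1 arrays were below the other 8, while 11C7 3 was at least as high as the number 2 arrays of both Nogo-A antibodies. Number 2 exceeded number 1 by 3.10 ± 0.41 (SE; limma adjusted p = 0.00898). Efnb3, a transmembrane ephrin, had means of -1.71 ± 0.38 (SD, n = 4), 0.57 ± 0.41 and -0.10 ± 0.43 in numbers 1 to 3 (limma adjusted p = 0.00984). Slit3 and Epha6 had the same order, with number 2 above number 1 by 1.15 ± 0.23 (SE) and 2.12 ± 0.47.

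Rgma, the ligand of neogenin, went the other way. Rgma (1375849_at) stood at 0.85, 0.15 and -0.05 in NT, 0.71, 0.02 and -0.24 in IgG, 0.68, 0.24 and -0.13 in 11C7 and 0.59, -0.07 and -0.48 in 7B12. The 4 number 1 arrays lay above the other 8, and in each group number 3 was the lowest. The difference of number 3 from number 1 was -0.93 ± 0.10 (SE; limma adjusted p = 0.00465). The EphB receptors Ephb1, Ephb4 and Ephb6 also had all number 1 arrays above the rest, with number 1 means of 0.73 ± 0.18 (SD, n = 4), 1.05 ± 0.15 and 0.53 ± 0.19. The probe sets of Ntn1 did not share an order: 1368880_at had its lowest mean in number 3 (-1.74 ± 0.25, SD, n = 4) and 1376128_at its highest there (0.39 ± 0.20), so the direction of this gene depends on the probe set.

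**Figure D2:**
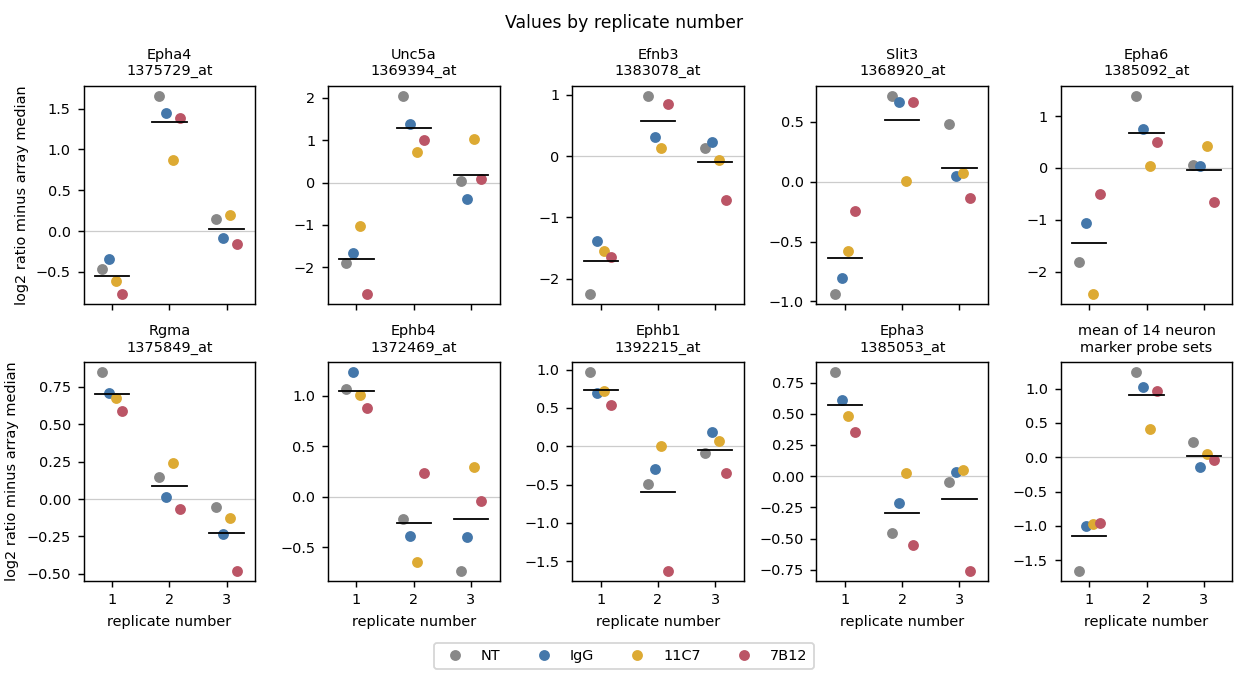
Each panel plots 1 member probe set, or in the last panel the mean of 14 neuron marker probe sets, as the log2 ratio minus the array median (y) by replicate number (x), 1 point per array coloured by group, with a bar at the mean of the 4 arrays. Epha4, Unc5a, Efnb3, Slit3 and Epha6 are highest in number 2, as is the neuron marker mean, and Rgma, Ephb4, Ephb1 and Epha3 (1385053_at) are highest in number 1.

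Cell type markers differed among the same arrays. The mean of 14 neuron marker probe sets ran from -1.65 to -0.96 in number 1, from 0.41 to 1.24 in number 2 and from -0.15 to 0.22 in number 3, and 11 of the 14 were called, all highest in number 2. Of 13 oligodendrocyte marker probe sets 10 were called, all highest in number 3, with array means from -0.80 to -0.40 in number 1 and 0.25 to 0.60 in number 3. Microglia markers had 6 of 10 called, all highest in number 3, and astrocyte markers 1 of 12. Markers of endothelium (2 of 8) and fibroblasts (3 of 10) were called as highest in number 1, but their array means overlapped between numbers. Endothelial means ran from -0.50 to 0.58 in number 1, -1.54 to -0.95 in number 2 and -1.11 to 0.33 in number 3. Fibroblast means ran from 0.12 to 0.52, -0.90 to 1.27 and -0.80 to -0.20 in that order, the highest being 7B12 2. Of all probe sets 17.9% were called among numbers. The part of these markers in the members' differences was not tested, and in pooled cultures fewer cells of a type and less RNA per cell cannot be told apart.

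Promoters of called members are shown for both orders among the numbers. Of the 39 members 32 had a promoter in RefSeq's table for GRCr8, which gives 300 bases around a gene's start, most of them upstream. Among the 14 genes called between numbers 10 had one, and the 5 that hold a GC box (GGGCGG, searched on both strands, overlaps counted) are printed 5′ to 3′ along the gene, with GC boxes in capitals. Unc5a (chr17:9675614-9675913, minus strand), Epha6 (chr11:53226534-53226833, plus strand) and Slit3 (chr10:20075679-20075978, plus strand) were highest in number 2, and Rgma (chr1:136538532-136538831, plus strand) and Ephb4 (chr12:24988339-24988638, minus strand) in number 1.
Unc5a: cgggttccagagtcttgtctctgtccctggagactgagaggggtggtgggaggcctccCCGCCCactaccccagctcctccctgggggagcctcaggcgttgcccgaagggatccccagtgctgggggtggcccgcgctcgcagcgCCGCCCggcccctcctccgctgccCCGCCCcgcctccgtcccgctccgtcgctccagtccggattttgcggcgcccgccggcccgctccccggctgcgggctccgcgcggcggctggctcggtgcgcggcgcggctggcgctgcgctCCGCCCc
Epha6: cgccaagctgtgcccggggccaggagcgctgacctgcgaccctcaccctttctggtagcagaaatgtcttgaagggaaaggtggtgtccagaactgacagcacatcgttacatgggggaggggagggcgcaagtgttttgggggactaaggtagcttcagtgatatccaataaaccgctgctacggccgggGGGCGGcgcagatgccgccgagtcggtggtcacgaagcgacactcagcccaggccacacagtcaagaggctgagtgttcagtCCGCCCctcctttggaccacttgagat
Slit3: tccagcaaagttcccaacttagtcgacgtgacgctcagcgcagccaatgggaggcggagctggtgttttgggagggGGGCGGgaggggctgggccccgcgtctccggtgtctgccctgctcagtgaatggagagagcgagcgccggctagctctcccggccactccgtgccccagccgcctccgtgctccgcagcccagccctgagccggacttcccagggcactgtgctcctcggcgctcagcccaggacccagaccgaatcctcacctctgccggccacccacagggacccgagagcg
Rgma: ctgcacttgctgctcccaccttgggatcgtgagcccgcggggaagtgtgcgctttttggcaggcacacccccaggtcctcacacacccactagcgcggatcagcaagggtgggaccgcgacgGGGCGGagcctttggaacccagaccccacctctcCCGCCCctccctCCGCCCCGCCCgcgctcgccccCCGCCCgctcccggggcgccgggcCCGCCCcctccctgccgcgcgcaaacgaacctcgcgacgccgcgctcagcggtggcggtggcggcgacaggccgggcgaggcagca
Ephb4: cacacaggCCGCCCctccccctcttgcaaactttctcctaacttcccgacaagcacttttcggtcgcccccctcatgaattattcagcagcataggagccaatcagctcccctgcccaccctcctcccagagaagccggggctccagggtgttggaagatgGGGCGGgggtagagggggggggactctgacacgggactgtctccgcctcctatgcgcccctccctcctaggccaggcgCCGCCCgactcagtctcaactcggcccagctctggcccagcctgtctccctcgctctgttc
GC boxes stood 4 times in the promoter of Unc5a, 2 in Epha6, 1 in Slit3, 6 in Rgma and 3 in Ephb4. These 5 were printed because they hold the motif, so its presence there cannot compare the orders. The called genes whose promoters hold no GC box, Epha3, Epha5, Ephb1, Ephb6 and Ntng1, were all highest in number 1. Epha4, Efnb3, Slit2 and Ntn1, each with a called probe set highest in number 2, had no promoter in RefSeq's table. The orders therefore cannot be compared on the lack of a GC box either. Over all 33469 promoters of this length 33.1% hold a GC box, against 18 of 32 members. The TATA box TATAAA was in 0 of 32 members and in 14.2% of all promoters. CG dinucleotides numbered 37 in Unc5a, 17 in Epha6, 24 in Slit3, 37 in Rgma and 14 in Ephb4, where the median over all promoters was 7. In the called genes without a GC box they ran from 8 in Epha5 to 20 in Ephb6. These counts describe the letters only.

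The antibody comparisons ask whether neutralizing Nogo-A changed the guidance genes, with NT and IgG together as controls. No member was called with 7B12, with 11C7, or with both antibodies combined by limma, and neither was any other probe set (0% in each comparison). At an unadjusted p under 0.05 limma gave 2 member probe sets with 7B12 (Efnb1 1369476_at and Efna4; 5.2% of all probe sets), 1 with 11C7 (3.22%) and the same 1 with both, 1369379_at of Epha3 (4.32%). With the replicate number as a block, which sets each antibody array against the controls of its number, these counts were 7 (9.45%), 1 (5.74%) and 4 (8.22%). The 7 were both Efnb1 probe sets, 1385053_at of Epha3, Ephb1, Ephb6, Slit1 and 1382685_at of Slit2, the 4 were 1369379_at of Epha3, 1382908_at of Epha4, Ephb6 and 1382685_at of Slit2, and 0 were called after adjustment (0%). In no antibody comparison with the controls did a member's groups fail to overlap, as 3.11%, 1.67% and 0.168% of all probe sets did. The 1-way analysis of variance of the series' design text was rerun here on centred log2 values, without the 1.2-fold limit given there. It gave 2 of 49 members at p under 0.05 (3.31% of all probe sets) and 0 after Benjamini-Hochberg adjustment. The limma F test over the 4 groups gave 0 at an unadjusted p under 0.05 (3.54%).

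No call was made, but most members lay below the controls with each antibody, and most lay below NT with IgG. With 7B12, 36 of 49 probe sets had a difference below 0 (49.7% of all probe sets) and the median difference was -0.25, against 0.0026 over all probe sets. With 11C7, 35 of 49 were below 0 (48.5%) and the median was -0.11, against 0.0097. IgG lay below NT for 31 of 49 (51.3%), with a median of -0.06 against -0.0065. Within numbers, 18 members were lower in 7B12 than the mean of its 2 controls in all 3 numbers (15.8% of all probe sets) and 5 were higher (17.4%); with 11C7 the counts were 5 lower (12%) and 2 higher (12.3%). Both comparisons use the same 6 control arrays, so a control array that is high raises both counts. The 7B12 median was -0.14 without 7B12 1 and -0.12 without 7B12 3, where 28 members were below 0; the 11C7 median was -0.06 without 11C7 2, -0.07 without IgG 2 and -0.07 with quantile normalization. An array left out also unbalances the numbers. With the replicate block, which allows for this, the 7B12 median was -0.17 without 7B12 3, with 31 members below 0, and the 11C7 median was 0.0003 without 11C7 2, with 24 below 0, -0.07 without IgG 2 and -0.23 without 11C7 3.

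**Figure D3:**
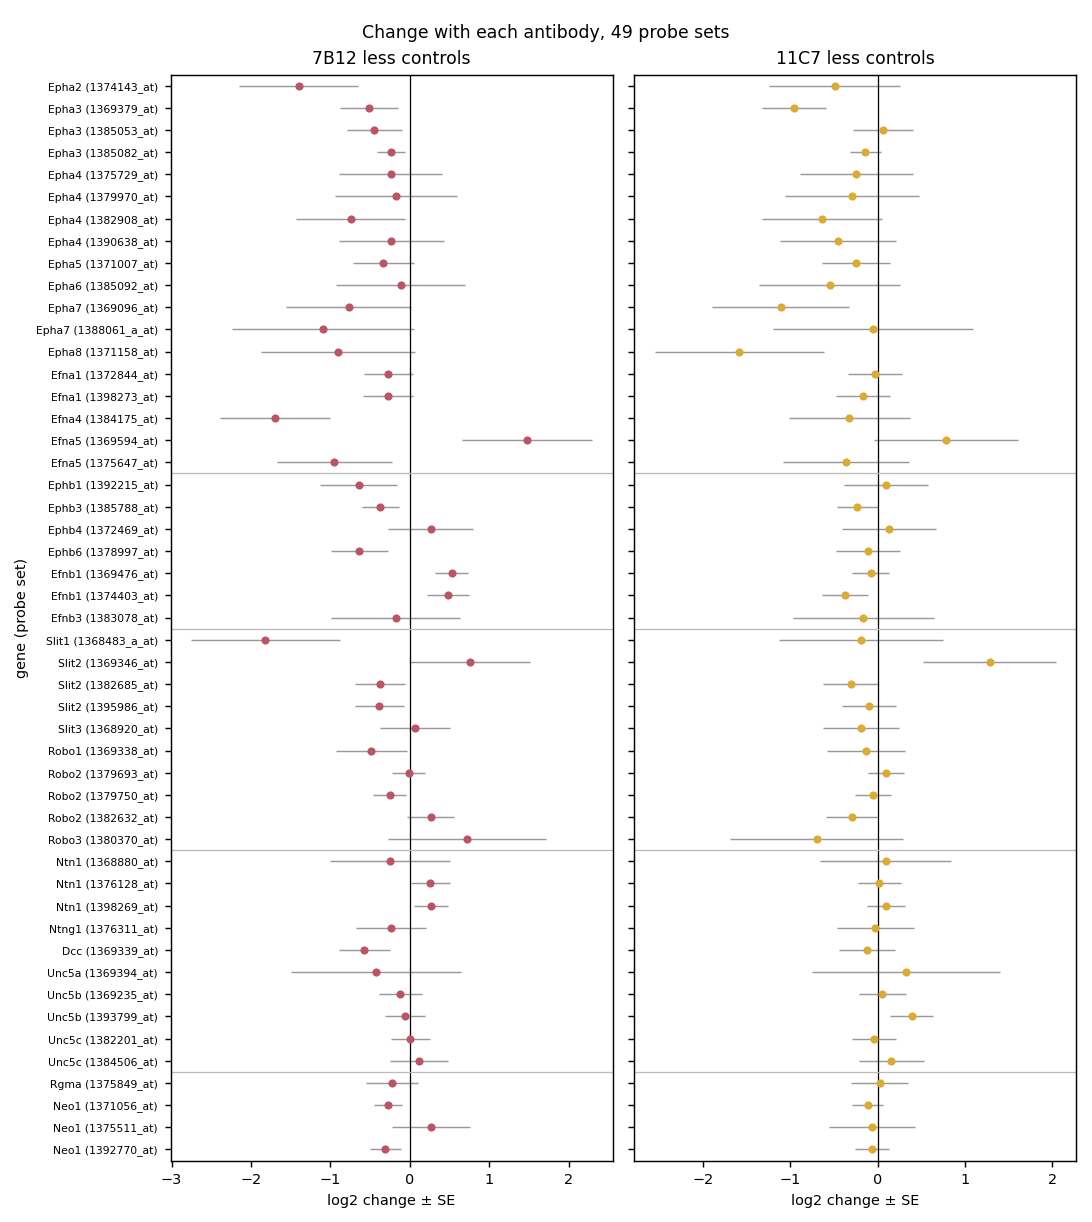
Points give the log2 difference of 7B12 (left) and 11C7 (right) from the mean of NT and IgG for each member probe set. Bars give the standard error without the replicate block, which includes spread between numbers, and horizontal lines separate the systems. All 13 EphA probe sets lie left of 0 with 7B12, and Efna4, Epha2 and Slit1 lie farthest left there, with bars that are wide for these probe sets.

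Among the EphA receptors, all 13 probe sets had differences below 0 with 7B12, from -1.40 ± 0.75 (SE) for Epha2 to -0.11 ± 0.81 for Epha6, with a median of -0.45. None was called by limma (adjusted p = 1.00 for each). With 11C7, 12 of 13 were below 0, from -1.58 ± 0.97 for Epha8 to 0.06 ± 0.34 for 1385053_at of Epha3. The Epha8 probe set had a 12-array median ratio of 0.11. Its controls ran from -3.77 to 0.29, with only IgG 1 and IgG 2 above 0. The 13 are 7 genes and 4 of them are Epha4, so they are not independent. Over ephrin-A and EphA together 17 of 18 probe sets were below 0 with 7B12 (median -0.39) and 16 of 18 with 11C7 (median -0.31). Within numbers 1, 2 and 3 the first median was -0.33, -0.21 and -0.54 and the second -0.15, -0.44 and -0.02. With the replicate block the first was -0.23 without 7B12 3 and -0.43 without 7B12 2, and the second -0.15 without 11C7 2. Without the block, where a left-out array unbalances the numbers, the first was -0.24 without 7B12 3 and -0.81 without 7B12 2. The second was then -0.55 without NT 1, -0.48 without 11C7 2, -0.20 without 11C7 1, and -0.19 without either NT 2 or IgG 2. Neuron marker probe sets, by comparison, were above 0 for 9 of 14 with 7B12 (median 0.08) and below 0 for 9 of 14 with 11C7 (median -0.10). Oligodendrocyte markers were below 0 for 10 of 13 with 7B12 (median -0.07) and above 0 for 12 of 13 with 11C7 (median 0.14). Astrocyte markers were below 0 for 7 of 12 with 7B12 (median -0.04) and for 9 of 12 with 11C7 (median -0.12). Endothelial markers were below 0 for 6 of 8 with 7B12 (median -0.53) and above 0 for 5 of 8 with 11C7 (median 0.11). Microglia markers were above 0 for 9 of 10 with 7B12 (median 0.33) and 8 of 10 with 11C7 (median 0.07). Fibroblast markers were above 0 for 9 of 10 with 7B12 (median 0.75) and below 0 for 7 of 10 with 11C7 (median -0.26). The part of these markers was not tested.

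Epha3, a receptor of ephrin-A ligands in axon mapping, had the smallest unadjusted p with 11C7. Epha3 (1369379_at) stood at -0.05, 0.78 and 0.85 in NT arrays 1, 2 and 3, at 0.43, -0.10 and 0.59 in IgG, at -0.89, 0.38 and -1.11 in 11C7 and at 0.12, 0.09 and -0.49 in 7B12. The 11C7 arrays 1 and 3 lay below all 6 controls and 11C7 2 lay among them. The difference with 11C7 was -0.96 ± 0.36 (SE; limma adjusted p = 1.00), and within numbers 1, 2 and 3 it was -1.08, 0.04 and -1.83. With both antibodies it was -0.73 ± 0.30 (limma adjusted p = 1.00). Another Epha3 probe set (1385053_at) stood at 0.83, -0.45 and -0.05 in NT, 0.61, -0.21 and 0.03 in IgG, 0.48, 0.03 and 0.05 in 11C7 and 0.36, -0.55 and -0.76 in 7B12. In each number 7B12 was the lowest of the 4 arrays, though the numbers overlap. Its 7B12 difference was -0.45 ± 0.34 (limma adjusted p = 1.00, and 0.454 with the replicate block), and its 11C7 difference was 0.06. The remaining Epha3 probe set (1385082_at) differed by -0.24 with 7B12 and -0.14 with 11C7. With 7B12 all Epha3 probe sets lay below the controls, 1369379_at by -0.51, while with 11C7 they did not share a direction.

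For Epha4 (1382908_at) the values were -0.66, 1.55 and 0.16 in NT arrays 1, 2 and 3, -0.68, 0.97 and 0.49 in IgG, -1.06, 0.14 and -0.08 in 11C7 and -1.27, 1.21 and -1.25 in 7B12. In numbers 1 and 3 both antibody arrays lay below both controls, and in number 2 only 11C7 did. The difference with both antibodies was -0.69 ± 0.56 (limma adjusted p = 1.00). With the replicate block its SE was 0.28 (limma adjusted p = 0.594). The other 3 Epha4 probe sets ran from -0.24 to -0.18 with 7B12 and from -0.45 to -0.24 with 11C7.

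Of the ephrin-A ligands, Efna4 stood farthest below the controls with 7B12. Efna4 (1384175_at) stood at -0.09, 0.69 and 0.28 in NT, 0.99, -1.31 and 0.58 in IgG, 1.01, 0.18 and -1.59 in 11C7 and -2.16, -2.04 and -0.32 in 7B12. The 7B12 arrays 1 and 2 lay below all 6 controls and 7B12 3 above the lowest control, IgG 2. The difference was -1.69 ± 0.69 (SE; limma adjusted p = 0.919; adjusted p = 0.540 with the replicate block), or -2.61, -1.73 and -0.75 within numbers 1, 2 and 3. With both antibodies it was -1.01 ± 0.56 (limma adjusted p = 1.00). Efna5 had probe sets on opposite sides of 0 with 7B12, at 1.48 ± 0.82 for 1369594_at, whose 12-array median ratio lies below 1, and -0.95 ± 0.72 for 1375647_at, where 7B12 3 alone stood at -2.93. Efna1 differed by -0.27 ± 0.31 on 1372844_at and by -0.28 ± 0.31 on 1398273_at.

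Among the ephrin-B ligands, Efnb1 was the only member with 2 probe sets above the mean of the same-numbered controls with 7B12 in all 3 numbers. Efnb1 (1369476_at) stood at 0.45, 0.13 and 0.00 in NT arrays 1, 2 and 3, at -0.25, -0.22 and -0.19 in IgG, at -0.22, -0.45 and 0.40 in 11C7 and at 0.73, 0.55 and 0.27 in 7B12. The 7B12 arrays 1 and 2 lay above all 6 controls and 7B12 3 lay below NT 1. The 7B12 difference was 0.53 ± 0.21 (SE; limma adjusted p = 0.896; adjusted p = 0.491 with the replicate block), or 0.63, 0.59 and 0.36 within the numbers. Efnb1 (1374403_at) stood at 0.29, 0.18 and -0.60 in NT, 0.46, -0.17 and -0.24 in IgG, -0.08, -0.30 and -0.77 in 11C7 and 0.41, 0.63 and 0.38 in 7B12. The array 7B12 1 lay below IgG 1, and only 7B12 2 lay above all controls. Its difference was 0.48 ± 0.26 (limma adjusted p = 1.00; adjusted p = 0.458 with the replicate block), or 0.03, 0.62 and 0.80 within the numbers.

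Fibroblast markers were also placed above the controls with 7B12, without a call. With 7B12, 9 of 10 fibroblast marker probe sets were above 0 (median 0.75); with 11C7, 7 of 10 were below 0 (median -0.26). Their array means ran from -0.80 to 0.35 in the 6 controls, were 0.25, -0.90 and -0.54 in 11C7 and were 0.52, 1.27 and -0.20 in 7B12, highest in 7B12 2. The means of 11C7 1, 11C7 3 and 7B12 3 lay within the range of the controls. Microglia markers were above 0 for 9 of 10 probe sets with 7B12 (median 0.33), and endothelial markers below 0 for 6 of 8 (median -0.53). The part of these cells in the Efnb1 values was not tested.

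The EphB receptors included 3 of 4 below the controls with 7B12. Ephb1 (1392215_at) stood at 0.96, -0.50 and -0.09 in NT, 0.70, -0.29 and 0.19 in IgG, 0.71, 0.00 and 0.06 in 11C7 and 0.54, -1.62 and -0.35 in 7B12. Ephb6, an Eph receptor without kinase activity (1378997_at), stood at 0.78, 0.16 and -0.38 in NT, 0.43, 0.06 and 0.04 in IgG, 0.56, -0.21 and -0.13 in 11C7 and 0.33, -0.48 and -1.21 in 7B12. For both genes 7B12 was the lowest of the 4 arrays in each number. The 7B12 difference was -0.64 ± 0.48 (SE) for Ephb1 (limma adjusted p = 1.00; adjusted p = 0.459 with the replicate block), or -0.30, -1.23 and -0.41 within numbers 1, 2 and 3. Without 7B12 2 it was -0.30 with the block and -0.07 without it. For Ephb6 it was -0.63 ± 0.36 (limma adjusted p = 1.00; adjusted p = 0.399 with the block), or -0.28, -0.59 and -1.04 within the numbers. Without 7B12 3 it was -0.41 with the block and -0.26 without it. With both antibodies Ephb6 differed by -0.37 ± 0.30 (limma adjusted p = 1.00; adjusted p = 0.606 with the block). Ephb3 differed by -0.37 ± 0.23 and Ephb4 by 0.26 ± 0.54 with 7B12.

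**Figure D4:**
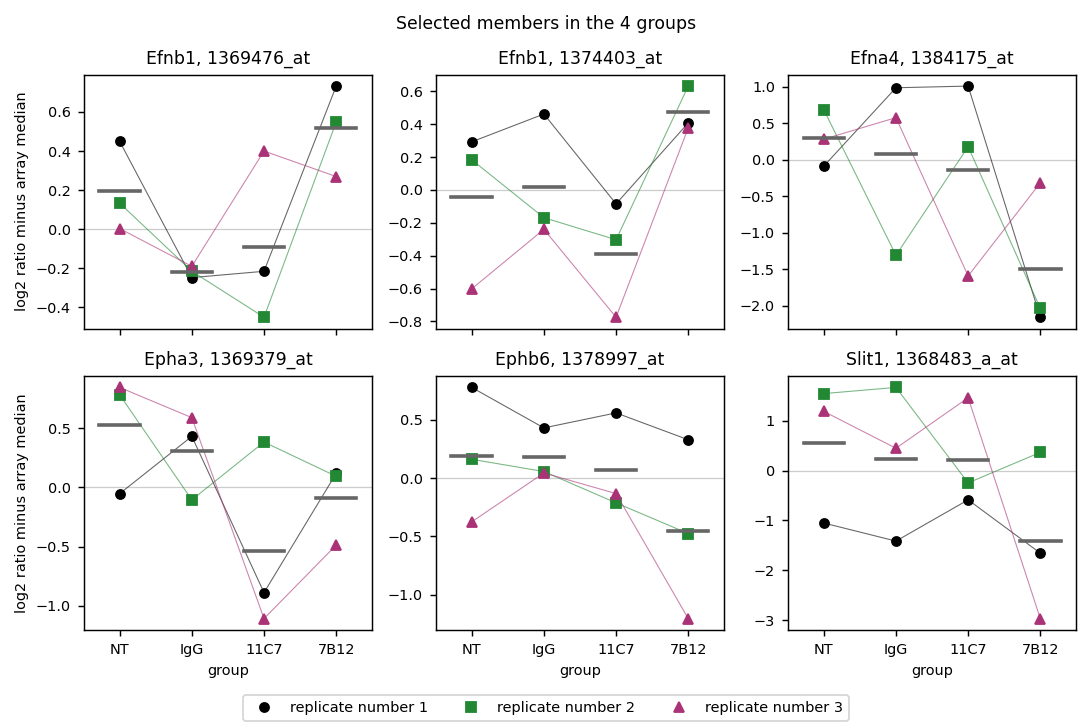
Each panel plots a member probe set as the log2 ratio minus the array median (y) in the 4 groups (x), with symbols and thin lines for replicate numbers and grey bars for group means. The 7B12 mean is the highest of the 4 on both Efnb1 probe sets and the lowest for Efna4, the 11C7 points of Epha3 sit low in numbers 1 and 3, and the lowest point of Slit1 is 7B12 in number 3.

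In the Slit and Robo system, 6 of 10 probe sets were below 0 with 7B12 (median -0.13) and 8 of 10 with 11C7 (median -0.16). Slit1 (1368483_a_at) stood at -1.05, 1.55 and 1.19 in NT, -1.41, 1.67 and 0.45 in IgG, -0.59, -0.25 and 1.46 in 11C7 and -1.66, 0.37 and -2.97 in 7B12. The control arrays of number 1 lay below those of numbers 2 and 3, and 7B12 3 was the lowest of all. Its 7B12 difference was -1.82 ± 0.94 (SE; limma adjusted p = 1.00; adjusted p = 0.526 with the replicate block), or -0.42, -1.24 and -3.79 within numbers 1, 2 and 3. Without 7B12 3 it was -0.69 with the block and -1.04 without it.

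Slit2 had 3 probe sets that did not move together. Slit2 (1382685_at) stood at -0.39, 0.49 and 0.50 in NT, -0.13, 0.55 and 0.46 in IgG, -0.50, 0.54 and -0.21 in 11C7 and -0.54, 0.28 and -0.12 in 7B12. Its difference was -0.37 ± 0.32 with 7B12 (limma adjusted p = 1.00; adjusted p = 0.485 with the block) and -0.34 ± 0.26 with both antibodies (limma adjusted p = 1.00; adjusted p = 0.535 with the block). Slit2 (1369346_at) stood at -1.19, -0.10 and -1.91 in NT, 0.09, -2.91 and -2.50 in IgG, -0.38, -0.85 and 0.81 in 11C7 and -1.58, -1.04 and 0.63 in 7B12. The controls alone ran from -2.91 to 0.09, and 11C7 3 and 7B12 3 lay above all of them. The 11C7 difference was 1.28 ± 0.76 (limma adjusted p = 1.00). Of the Robo receptors, which carry the Slit signal, Robo1 differed by -0.48 ± 0.44 with 7B12, the 3 Robo2 probe sets ran from -0.25 to 0.26, and Robo3 stood at 0.72 ± 0.99 with single arrays from -3.55 to 1.03.

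The netrin system had the median nearest to 0 of the 5 systems with 7B12. Of its 10 probe sets 6 were below 0 with 7B12 (median -0.09) and 3 with 11C7 (median 0.07), and none kept its direction in all 3 numbers with either antibody. Dcc, the attractive netrin receptor, stood at 0.18 ± 0.21 (SD, n = 3) in NT, 0.22 ± 0.41 in IgG, 0.08 ± 0.28 in 11C7 and -0.37 ± 0.76 in 7B12, a 7B12 difference of -0.57 ± 0.32 (SE; limma adjusted p = 1.00). Its 7B12 arrays spread from -1.01 in number 3 to 0.47 in number 2. The 5 UNC5 probe sets lay between -0.42 ± 1.07 (Unc5a) and 0.12 ± 0.37 (Unc5c) with 7B12 and between -0.04 and 0.39 with 11C7. Ntng1, a membrane-anchored netrin that binds its own receptor rather than DCC, differed by -0.24 ± 0.44 with 7B12.

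Rgma differed by -0.23 ± 0.33 (SE) with 7B12 and 0.03 ± 0.33 with 11C7, and within all 3 numbers 7B12 was below its controls, at -0.19, -0.15 and -0.33. With the replicate block the SE of the 7B12 difference was 0.097 (limma adjusted p = 0.529). Neo1 had differences of -0.31 ± 0.19, -0.27 ± 0.18 and 0.27 ± 0.49 with 7B12 on its 3 probe sets, the last being the one with a low 12-array median. The largest within-number difference on Neo1 with 7B12 was -0.74, in number 3 on 1392770_at.

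The control antibody itself was compared with no treatment. No member was called for IgG against NT (0% of all probe sets), and 1 had an unadjusted p under 0.05 with limma (2.32%). Ntn1 (1398269_at) stood at 0.63, -0.15 and 0.60 in NT arrays 1, 2 and 3 and at -0.14, -0.55 and -0.59 in IgG, against 0.12, 0.09 and -0.02 in 11C7 and 0.15, 0.55 and 0.02 in 7B12. IgG was lower than NT in each number, and the groups met at NT 2 and IgG 1. The difference was -0.78 ± 0.25 (SE; limma adjusted p = 1.00). On another Ntn1 probe set, 1368880_at, IgG was higher than NT in each number, by 0.68 ± 0.87 (SE). The probe set 1376128_at differed by -0.06 ± 0.28, so the direction for Ntn1 depends on the probe set. Efnb1 (1369476_at) was the 1 member whose IgG and NT groups did not overlap (4.6% of all probe sets), with a difference of -0.41 ± 0.24 (limma adjusted p = 1.00), and its 7B12 difference was 0.73 against IgG alone. Its IgG mean was the lowest of the 4 groups, at -0.22, against 0.20 in NT, -0.09 in 11C7 and 0.52 in 7B12. The 7B12 mean thus lay nearer to NT than to IgG. Fibroblast markers were lower in IgG than in NT on 9 of 10 probe sets (median -0.45), and their part was not tested.

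Between the antibodies, no member was called (0%), and 2 had an unadjusted p under 0.05 with limma (3.83%), both of them Efnb1; 4 did with the replicate block (7.04%). Efnb1 (1374403_at) was higher in 7B12 than in 11C7 by 0.86 ± 0.30 (SE; limma adjusted p = 1.00; adjusted p = 0.698 with the block), and was the 1 member whose 7B12 and 11C7 arrays did not overlap (7.3% of all probe sets). On 1369476_at the difference was 0.61 ± 0.24 (limma adjusted p = 1.00), with number 3 the other way at -0.13. Fibroblast markers were higher in 7B12 on 10 of 10 probe sets in the same comparison (median 0.99), and their part was not tested.

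Other genes of these pathways, from lists chosen with earlier results of these data known, gave no call either. Of 59 probe sets of Eph and ephrin signalling genes, 1 was higher and 0 lower at an unadjusted p under 0.05 with 7B12 (3.09% and 2.12% of all probe sets), and 0 and 2 with 11C7 (0.989% and 2.23%). The 2 were Src, a kinase that acts behind many guidance receptors, at -1.16 ± 0.24 (SE; limma adjusted p = 0.770) and Chn1, a Rac inhibitor downstream of EphA4, at -1.13 ± 0.39. Src was lower in 11C7 in each number, at -1.35, -0.71 and -1.41. Grb10, an adaptor, stood at 1.40 ± 0.55 with 7B12, but its controls differed by more, with IgG at -1.59 ± 0.63 against NT (limma adjusted p = 1.00) and -3.60 in number 3. Vav2 stood at 1.09 ± 0.50 with 7B12.

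Of 43 probe sets of Slit and Robo signalling genes, 3 were higher and 1 lower at an unadjusted p under 0.05 with 7B12 (3.09% and 2.12% of all probe sets) and 0 and 0 with 11C7 (0.989% and 2.23%). Vasp, an actin regulator, stood at 1.53 ± 0.37 (SE; limma adjusted p = 0.575) with 7B12, higher in each number at 1.09, 1.46 and 2.03, and at 0.56 ± 0.37 with 11C7. Sdc1, a heparan sulfate proteoglycan, stood at 3.43 ± 0.90 (limma adjusted p = 0.622), or 3.66, 1.62 and 5.01 within the numbers, and at 1.86 ± 0.90 with 11C7.

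Of 63 probe sets of netrin, DCC, UNC5 and RGM signalling genes, 1 was higher and 4 lower at an unadjusted p under 0.05 with 7B12 (3.09% and 2.12% of all probe sets) and 0 and 2 with 11C7 (0.989% and 2.23%). Dscam, a netrin co-receptor, stood at -1.15 ± 0.31 (SE; limma adjusted p = 0.634) and Siah1, a ubiquitin ligase that acts on DCC, at -2.33 ± 0.72 (limma adjusted p = 0.730), both lower in each number. With 11C7, Src again and Arhgef12 (-0.38 ± 0.15) were the lowest by p. Over the 3 lists the median difference lay between -0.06 and 0.03 with 7B12, against -0.25 for the members.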

How the data were processed

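RNA from 12 pools of cultures was hybridised to 1-colour Affymetrix rat arrays. The authors deposited a linear ratio per probe set and array, which the submitters' processing notes trace to GCOS 1.4 and MAS5 and which was scaled per array and per probe set per the series' design text; for 76.4% of probe sets the 12-array median is 1 within 0.0015. Of the 31099 probe sets 57 were spike-in controls and stayed out; 20826 have 1 symbol, 436 several and 9780 none. Array median ratios were 0.915 to 0.987, and no value was imputed. The position of each probe set within its transcript was not analysed here.

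Computed here: log2 of the ratio minus the array median, then limma 3.58.1 in R 4.3.3 (1 mean per group, lmFit, contrasts.fit and eBayes without trend, two-sided, Benjamini-Hochberg over 31042 probe sets, threshold 0.05). The fit was tested on simulated data. The members, marker lists and pathway lists were chosen with earlier results of these data known. Described with every array's value were the 2 member probe sets with the smallest p per comparison, those with p under 0.05 in the antibody comparisons with or without the replicate block, and the 4 with the smallest p among numbers; from each pathway list, the 2 with the smallest p.

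Same-numbered arrays deviated together: over 18 same-number pairs the correlation of deviations from the group means ran from 0.0861 to 0.423 (17 over 0.1), and over 36 other pairs from -0.293 to 0.0808. The block is an alternative because the study's methods state none and no source says what a number marks, and 1 pair also missed 0.1. Within-number differences are therefore descriptions. Other alternatives were no array centring, quantile normalization, a pseudocount of 0.1, only probe sets with a median near 1, array weights, a trend, IgG as the only control, and each array left out; the fit without 11C7 arrays, that on the 6 control arrays and each array left out with the block were chosen after seeing the data.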

Additional observations from a re-analysis of the deposited data

Results flagged for a closer look

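Efnb1 (1374403_at) was picked out because 7B12 and 11C7 moved opposite ways against the mean of the controls of their own number. The 3 7B12 arrays were higher by 0.03, 0.62 and 0.80 and the 3 11C7 arrays lower, at -0.46, -0.31 and -0.35. In number 1, however, the 7B12 array lay below the IgG array. The difference between the antibodies was 0.86 ± 0.30 (SE, log2 scale; limma adjusted p = 1.00, and 0.698 with the replicate block). Of all probe sets 1.76% showed such opposite directions, and the other probe set of the gene did not, since its 11C7 array of number 3 stood 0.49 above its controls.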

How the results depend on the processing

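The counts of 0 called members held in all 5 comparisons and in the F test over the groups under every alternative run, and in the comparisons of groups 626 of 626 values of the members described by array kept their direction, with 0 of them called. Among numbers, 76 of 76 values of the 4 members described there kept their direction, and 72 were called, all but the 4 from the control arrays alone. All these members were picked by small p in the same arrays. On all arrays the block and the trend cannot change a group difference. Kept directions were therefore largely fixed in advance and are no separate support. Pairing arrays by number (replicate block) left the counts at 0; every array correlated best with its own number, as a hint from the data. The block with the 11C7 arrays left out called 0 members and 68 probe sets, the smallest member adjusted p being 0.280, for Efnb1 (1369476_at). Leaving out 1 array at a time, the median member difference ran from -0.37 to -0.12 with 7B12, -0.15 to -0.06 with 11C7, -0.25 to -0.086 with both, -0.10 to 0.027 for IgG against NT and -0.23 to 0.033 for 7B12 against 11C7. The ephrin-A and EphA median ran from -0.81 to -0.24, -0.55 to -0.19, -0.69 to -0.24, -0.45 to 0.29 and -0.36 to 0.19 in the same order, and the last was 0.0012 with array weights (-0.09 without), so its direction depends on the weights; the cause was not tested. With an array left out and the block, the member medians ran from -0.35 to -0.17, -0.23 to 0.0003, -0.22 to -0.13, -0.097 to 0.019 and -0.23 to 0.0088, and the ephrin-A and EphA medians from -0.46 to -0.23, -0.46 to -0.15, -0.47 to -0.22, -0.19 to 0.059 and -0.32 to 0.14, in that order; the last was above 0 without 11C7 1 (0.041), 11C7 3 (0.14) or 7B12 3 (0.13). The members called among numbers ran from 6 to 18 with an array left out (5.63% to 19.7% of all probe sets), were 17 to 20 under the other settings on all arrays (16.3% to 31.7%), and were 0 (0%) in the 6 control arrays, a fit with fewer samples. Member counts at an unadjusted p under 0.05 with 7B12 ran from 0 (without NT 3, 5.05% of all probe sets) to 4 (without 7B12 2, 5.3%). They were 9 with the block and the 11C7 arrays left out (10.7%), and in the F test over the groups 0 to 3, with 3 without IgG 1 (3.72%). Over all probe sets, leaving out 11C7 1 gave 10 calls with 7B12. Signal over background is unknown, since ratios carry no level.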
